A study of Saccharomyces cerevisiae with 7 samples.

Results

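The loci described here are transcribed regions of the yeast genome that the authors' table lists by a systematic locus name only, such as YGR160W, and whose nascent RNA was lower after heat shock. They are the rows whose gene name equals the locus name, whose mean over the 4 conditions was at least 15 normalized reads, and whose ratio of 39 °C to 30 °C without rapamycin was at most 0.5 after adding 3 to each value. Of 5732 rows in the table, 958 carried no gene name, 506 of these reached the mean of 15, and 83 met the rule. Across all 4522 rows with a mean of at least 15, named or not, 804 met the same ratio, which is 17.8% of them. The loci were thus chosen by the 2 columns without rapamycin and by the mean of all 4, so that their low values at 39 °C are a description and not a finding.

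The study, in Saccharomyces cerevisiae, followed the heat shock transcription factor Hsf1. All 4 nascent RNA conditions used strain DPY1283, in which Hsf1 carries an anchor-away tag (Hsf1-AA) and the RNA polymerase II subunit Rpb3 carries a FLAG tag (Rpb3-FLAG). Cells were at 30 °C or at 39 °C, each without rapamycin or with 1 µM rapamycin, which in anchor-away strains tethers the tagged protein outside the nucleus. The sources used here do not say how long the nascent RNA cultures were at 39 °C or in rapamycin. Since no strain without the tag was analysed here, the loss of nuclear Hsf1 cannot be told apart from effects of rapamycin through other targets such as the TOR kinase. Each condition is 1 column of authors' averages, with column totals from 369200 to 433500, and therefore no value below carries an SD, an n or a test. Standard errors cover counting error only, estimated from what 1 read is worth in each column. In a culture sampled in bulk, less RNA per cell and fewer transcribing cells cannot be told apart. Lower and higher mean at least 2-fold after adding 3 normalized reads to each value.

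A yeast locus is listed by its systematic name alone when no standard gene name is attached to it. Some such loci are genes of known function, some are conserved but unstudied genes, and others are dubious open reading frames, which were annotated from sequence alone and often lie across a known gene on the opposite strand. Heat shock and other stresses lower the transcription of genes for making ribosomes, a large group that includes ribosomal proteins, assembly factors and the polymerases that make ribosomal and transfer RNA. An RNA count at a dubious frame may therefore hold reads of the gene it lies across. The sources used here do not give the strand setting of the read counting, so reads of a locus and of an opposite-strand neighbour cannot be told apart.

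The RefSeq gene table of assembly R64 splits the 83 loci into groups of nearly equal size. It lists 40 of them as protein-coding genes with coordinates, and 10 of these carry a gene name there that the deposited table did not use. The other 43 have no entry in that table and no coordinates here. Among the 506 nameless loci that reached the mean of 15, those without an entry were members more often, 43 of 154 or 27.9% against 40 of 352 or 11.4%. The median locus of the listed group had 37.3 normalized reads at 30 °C and 38.4 with rapamycin at that temperature, and that of the group without an entry had 39.9 and 37.0. At 39 °C the medians of the listed and unlisted groups were 8.83 and 11.0 without rapamycin and 14.0 and 15.7 with it.

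**Figure D1:**
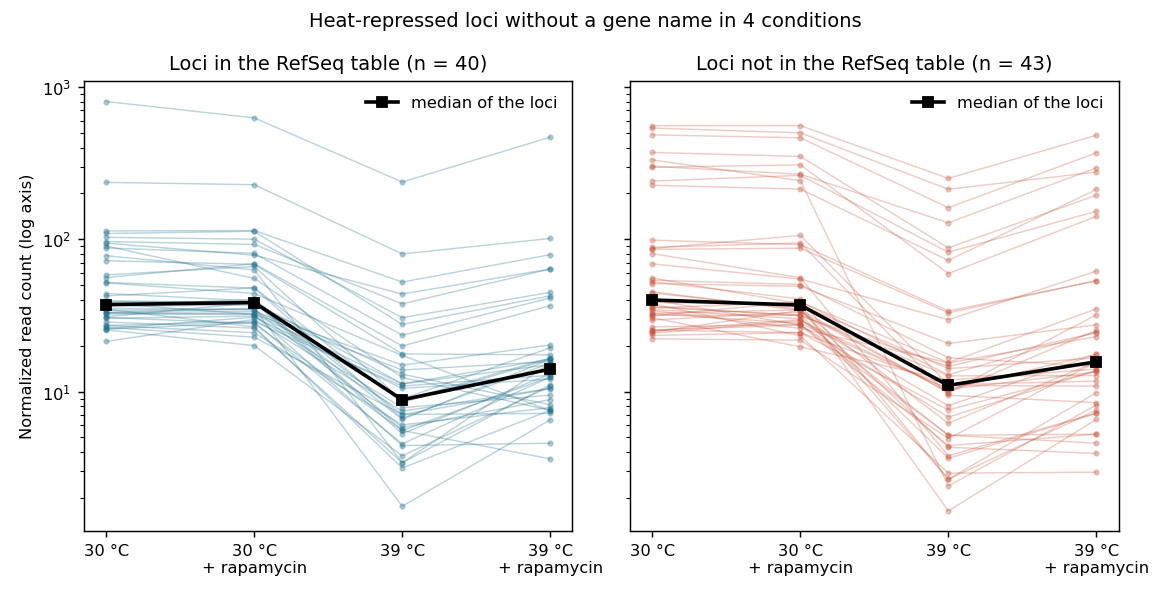
Normalized read count (log axis) of each of the 83 loci in the 4 conditions, with loci listed in the RefSeq table on the left and loci without an entry on the right, 1 thin line per locus and the group median in black. The median of listed loci goes from 37.3 at 30 °C to 8.83 at 39 °C and 14.0 at 39 °C with rapamycin.

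The lowest ratios were described first, by the values that chose them. YGR160W had 332 normalized reads at 30 °C, 242 at 30 °C with rapamycin, 2.40 at 39 °C and 8.15 at 39 °C with rapamycin. Its log2 ratio of 39 °C to 30 °C was -5.95 (counting standard error 0.30), and both values at 39 °C were far below both at 30 °C. NSR1, its neighbour on the opposite strand and the gene for a nucleolin-like protein of ribosome assembly, had 401, 353, 9.85 and 18.6 in the same order. Of 83 loci, 27 or 32.5% had a ratio of at most 0.25, beside 6.48% of all 4522 rows and 36.9% of the 721 named genes that met the rule's ratio, a count read only as a description.

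YOR342C, a RefSeq gene on chromosome XV from 966666 to 967625, had 77.9 normalized reads at 30 °C, 62.9 with rapamycin at that temperature, 3.41 at 39 °C and 15.4 with rapamycin at 39 °C. Its ratio of -3.66 (counting standard error 0.31) was the lowest among the 40 listed genes. YOR146W had 55.6, 37.7, 1.65 and 6.57 in the same order, which holds for every set of 4 values below. YDR491C had 80.4, 55.9, 3.79 and 7.23, and YNL114C had 52.5, 40.6, 2.66 and 9.83. Each of these stood on a handful of reads at 39 °C without rapamycin, where the lowest value in that column is 1.01. The other loci among the 12 lowest were YJR071W at -3.07, YMR310C at -2.92, YKL177W at -2.88, YNL174W at -2.78, YFR056C at -2.67, YCR016W at -2.62 and YGR079W at -2.60.

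At the edge of the rule, YPR050C, YPL182C and YDR444W lay just inside with ratios of 0.494, 0.497 and 0.498. YDL186W at 0.505, YBR089W at 0.508 and YNL150W at 0.531 lay just outside. YKL068W-A, YDR526C and YKR045C were just above the mean of 15, at 15.004, 15.6 and 15.8, and YIL092W, YDR413C and YDL121C just below it, at 14.96, 14.7 and 14.5.

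The heat comparison with rapamycin uses the other 2 columns, which entered the rule only through the mean over the 4 conditions. There 45 of the 83 loci were lower at 39 °C than at 30 °C, or 54.2%, against 12.8% of all 4522 rows and 14 of the 423 other nameless loci. The median log2 ratio of the 83 loci was -1.04, beside a median of 0.00 over all rows and 0.34 over the other nameless loci. Among the 721 named genes that met the same ratio without rapamycin, 415 or 57.6% were lower with it and the median was -1.13. In all, 81 of 83 loci or 97.6% had a ratio below 1 with rapamycin, beside 97.5% of those named genes and 2261 of all 4522 rows. The exceptions were YGR259C and YPL250W-A.

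YGR160W was again lowest in that comparison at -4.46 (counting standard error 0.34). It was followed by YKL177W at -3.09, YFR056C at -2.89, YDR157W at -2.68 and YDR491C at -2.52, all of which stayed at or below 12.9% of their 30 °C value in rapamycin. YKL177W had 88.5, 94.6, 9.45 and 8.46 normalized reads, so that its 2 values at 39 °C were alike. At the other end, YGR259C had a ratio of 0.16 (counting standard error 0.20), YPL250W-A of 0.14 (0.09), YPL142C of -0.01 (0.11), YEL020C-B of -0.10 (0.26) and YGL069C of -0.13 (0.25), so their values at 39 °C with rapamycin were within 1.5-fold of those at 30 °C with it.

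**Figure D2:**
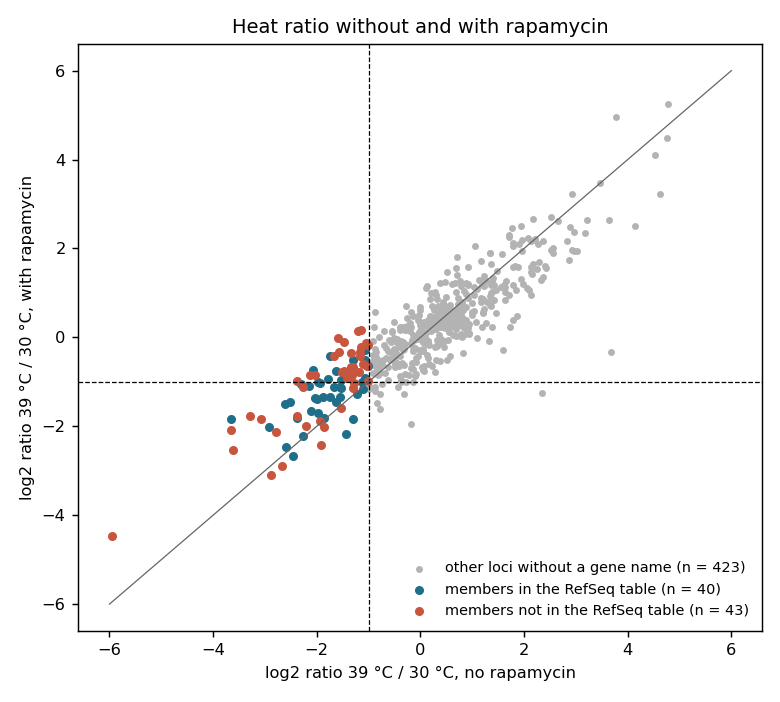
Log2 ratio of 39 °C to 30 °C without rapamycin (horizontal) and with rapamycin (vertical) for the 506 loci without a gene name that reached the mean of 15, with the 83 members in colour, a diagonal of equal ratios and dashed lines at -1. At or below the horizontal dashed line lie 45 of the 83 members, made up of 35 of the 73 above the diagonal and all 10 below it.

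With rapamycin at 30 °C these loci stayed within 2-fold of their values without it, as nearly all rows did. None of the 83 was lower and none was higher with rapamycin at 30 °C, where 0.376% and 0.0442% of all rows were, and 81 of 83 lay within 1.5-fold against 97.2% of all rows. The median log2 ratio was -0.05, in a range from -0.68 to 0.43. Some drops within 2-fold were well beyond counting error, as for YGR160W at -0.45 (counting standard error 0.08) and YDR524C-B at -0.36 (0.05). This comparison shares the 30 °C column without rapamycin with the rule, which favours high values in it. A lower value with rapamycin is thus favoured by the choice, which the counting errors do not cover. The widest were YGR079W, with 90.3 normalized reads without and 55.3 with rapamycin and a ratio of -0.68 (counting standard error 0.15), and YNL174W at -0.64 (0.22).

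Signal was regained in rapamycin at 39 °C by 18 loci, which means at least 2-fold higher with rapamycin than without it at that temperature. This is 21.7% of the 83, against 5.35% of all rows and 26.6%, or 192 of 721, of the named genes that met the same heat ratio. The comparison shares the 39 °C column without rapamycin with the rule, which picked low values in it, so a higher value in another column is built into the choice and the share is a description. For the same reason the 73 of 83 loci above a ratio of 1 are set beside 635 of the 721 named genes, or 88.0% beside 88.1%. Of the 18 loci, 5 are RefSeq genes and 13 have no entry, and 8 had under 6 normalized reads at 39 °C without rapamycin.

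YOR342C had the highest ratio of the 83, with a log2 value of 1.52 (counting standard error 0.41), and came back to 24.5% of its 30 °C value in rapamycin. YPL142C, at 226, 213, 72.6 and 212 normalized reads, had a ratio of 1.51 with a smaller counting error (0.15), and its value at 39 °C with rapamycin was 99.4% of that at 30 °C with it. YEL020C-B, at 32.6, 34.4, 9.85 and 31.9, had a ratio of 1.44 (0.33) and reached 92.8%. YBL070C, at 22.2, 21.8, 4.92 and 15.6, had a ratio of 1.24 (0.40) and reached 71.9%. The 6 others among the 10 highest were YGL123C-A at 1.21, YNL114C and YDR417C at 1.18, YPL250W-A at 1.18, YCR087C-A at 1.14 and YGR064W at 1.13. The rest of those that regained signal were YEL053W-A at 1.12, YGR160W at 1.05, YOR146W at 1.04, YGL069C and YNR029C at 1.03, YKL156C-A and YKL068W-A at 1.02 and YBL081W at 1.01.

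Regained did not mean restored. Of the 18 loci, 8 were still lower at 39 °C than at 30 °C in rapamycin, and YGR160W came back to only 3.37% of its 30 °C value there. Many loci missed the 2-fold mark by less than their counting error, the closest being YMR310C, at a ratio of 1.998, and YGR259C, at 1.985. Further examples were YDR524C-B at a log2 ratio of 0.97 (counting standard error 0.09), YGL102C at 0.93 (0.09) and YCR016W at 0.78 (0.45). YBL070C, YNL114C, YCR087C-A, YGR064W and every regained locus at a log2 ratio of 1.12 or below passed the mark by less than their counting error. For example, YBL081W was at 1.01 (counting standard error 0.39). No locus was at least 2-fold lower with rapamycin at 39 °C. The 5 with the lowest ratio were YLR042C at -0.95 (counting standard error 0.40), YGR079W at -0.54 (0.41), YBR242W at -0.51 (0.41), YDR157W at -0.37 (0.47) and YLR041W at -0.15 (0.35). YLR042C had 51.7, 44.0, 17.3 and 7.49 normalized reads, so it was lowest where heat and rapamycin were combined. YLR041W, at 53.8, 50.4, 16.7 and 14.7, carries the next number on the chromosome arm.

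Among the 40 RefSeq genes, coordinates gave 1 overlap with a named heat-repressed gene. YDR157W, on chromosome IV from 769931 to 770332, shares 8 bases with RPA14, which encodes a subunit of RNA polymerase I. YDR157W had 44.0, 39.3, 5.55 and 3.62 normalized reads, and the log2 heat ratios of RPA14 were -1.44 without and -1.45 with rapamycin. YML096W shares 6 bases with YML095C, which is not a named heat-repressed gene. The other 38 listed loci overlap no gene of the RefSeq table, within its coordinates.

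The 10 members that RefSeq names include several with roles around protein synthesis. YCR016W is RBP95 (III, 143634 to 144506), an assembly factor of the large ribosomal subunit, at 34.7, 26.6, 3.15 and 7.54 normalized reads and a log2 heat ratio of -2.62 (counting standard error 0.33). YMR310C is UPA2 (XIII, 895716 to 896669), at 33.1, 35.2, 1.77 and 6.52, a ratio of -2.92 (0.32). YDR161W is ACL4 (IV, 779043 to 780206), a dedicated chaperone of a ribosomal protein of the large subunit, at 36.6, 40.4, 7.05 and 10.4, a ratio of -1.98 (0.30). All 3 were lower with rapamycin as well, at -1.49, -2.01 and -1.69.

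YNL024C is EFM6 (XIV, 587107 to 587847), which methylates a translation elongation factor, at 31.0, 38.3, 5.29 and 13.0 normalized reads and a heat ratio of -2.03 (counting standard error 0.32). YNR029C is ZNG1 (XIV, 677199 to 678488), a zinc-handling GTPase, at 25.7, 28.4, 4.54 and 12.4, a ratio of -1.93 (0.33). YNL247W is CRS1 (XIV, 182875 to 185178), the cysteinyl-tRNA synthetase, at 96.5, 92.4, 37.6 and 63.8, a ratio of -1.29 (0.18). EFM6 and ZNG1 were lower with rapamycin too, at -1.37 and -1.03, whereas CRS1 had -0.52 (0.18). CRS1 is divergent from RPA49, a further RNA polymerase I subunit gene, with 266 bases between them, and RPA49 had heat ratios of -3.26 and -2.60 without and with rapamycin.

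The remaining named members were YER156C, or MYG1 (V, 483325 to 484341), at 103 normalized reads at 30 °C, 30.5 at 39 °C and 44.8 at 39 °C with rapamycin, and YJR003C, or MRX12 (X, 440994 to 442553), at 30.3, 31.3, 7.83 and 9.47. YGL101W, or YGK1 (VII, 312193 to 312840), had 37.9, 32.1, 11.2 and 15.03, and YLR042C is NFG1 (XII, 229966 to 230451). Their heat ratios without rapamycin were -1.66, -1.62, -1.52 and -1.43, and only YGK1 of these was not lower with rapamycin, at -0.96. Per kilobase of the annotated gene at 30 °C, the highest level among listed members was that of YDR524C-B, at 3989 normalized reads per kilobase, followed by its neighbour YDR524W-C at 1047. These are frames of 201 and 90 bases on opposite strands of chromosome IV (1489598 to 1489798 and 1489403 to 1489492). YDR524C-B had 802, 626, 238 and 468 normalized reads, a heat ratio of -1.74 (0.07) without and -0.42 (0.07) with rapamycin.

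Genes of known function in the same processes were read beside these. All 73 measured genes of a ribosome biogenesis list that reached the mean of 15 were lower without rapamycin and 72 were lower with it, with medians of -3.37 and -2.32. Of 35 genes in a list of methyltransferases that act on ribosomes, translation factors and transfer RNA, 26 were lower and 1 was higher without rapamycin, and 24 were lower with it, with medians of -1.87 and -1.33. Over all 4522 rows, 17.8% were lower without rapamycin and 12.8% with it. Both lists were chosen with earlier results of these data known, so their counts are descriptions. HMT1, the main arginine methyltransferase, had a heat ratio of -3.78 (counting standard error 0.25), and EFM2, which methylates an elongation factor, had -2.59 (0.33). EFM6, matched through RefSeq, lies at -2.03 and was counted with the 83 loci, since the deposited table lists it by locus.

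The 43 loci without a RefSeq entry mostly had a named neighbour of the same behaviour, though many of their named neighbours were not heat-repressed. Systematic names number the loci in order along each chromosome arm, so a neighbour here is a locus whose number is the same or differs by 1, which shows closeness and not overlap. Of the 43 loci, 37 or 86.0% had a named heat-repressed neighbour by this measure, against 14 of the 40 listed loci or 35.0%. The number rule misses some true neighbours: by coordinates, 18 of the 40 listed loci had an adjacent named heat-repressed gene, against 61 of the 312 other listed nameless loci. The same measure could not be taken for the 43 loci, which have no coordinates here. Among the other nameless loci the shares were 24 of 111 or 21.6% without an entry and 64 of 312 or 20.5% with one. In 35 of the 37 cases the neighbour was on the opposite strand, and no share for other neighbouring loci was computed beside this. The neighbours' heat ratios come from the same contrast that chose the loci, so these shares are descriptions.

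Locus and neighbour were then compared in the rapamycin columns, which did not choose either by the ratio. For the 37 loci, the median absolute difference between the log2 heat ratio of the locus and that of its neighbour (the lowest, where there were several) was 0.30, and 28 were within 0.5. Pearson's r over the 37 pairs was 0.74 and Spearman's rho 0.67, given as a description, since the points share libraries and possibly reads. For the 14 listed loci with such a neighbour, the median absolute difference was 0.68, 5 were within 0.5, and r and rho were 0.08 and 0.24. Whether reads of the neighbour make up the counts at these loci was not tested.

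**Figure D3:**
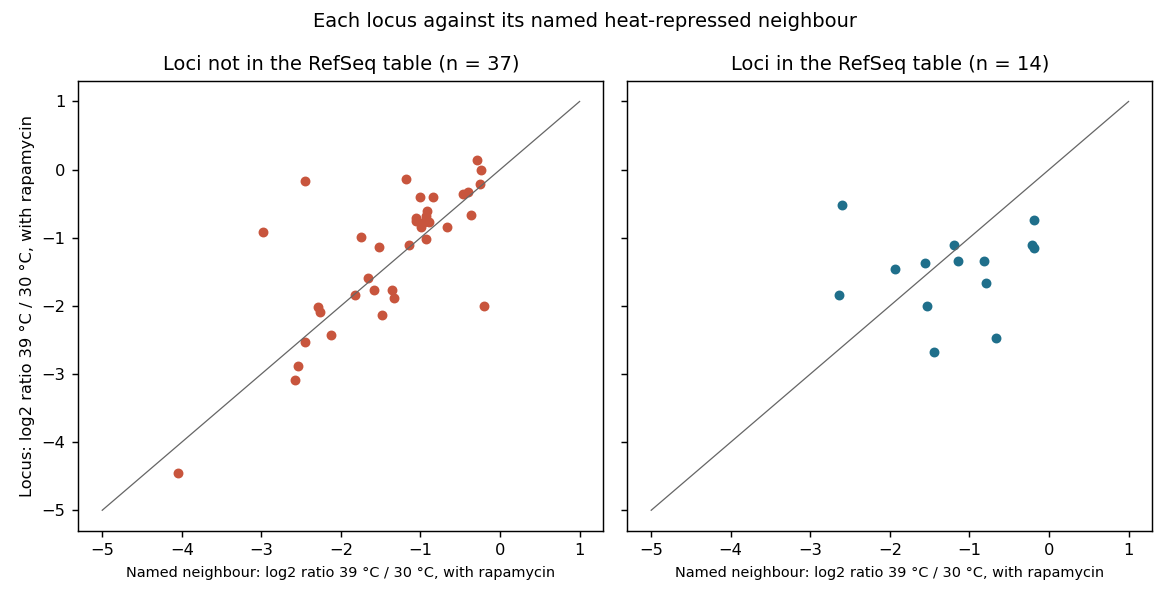
Log2 ratio of 39 °C to 30 °C with rapamycin of each locus (vertical) against that of its named heat-repressed neighbour (horizontal), for 37 loci without a RefSeq entry on the left and 14 with an entry on the right, with a diagonal of equal ratios. The left points lie near the diagonal, with a median absolute difference of 0.30, and the right points scatter around it more widely, with 0.68.

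Ribosome assembly and polymerase genes were the neighbours of several of the lowest loci. YOR146W stands next to PNO1, needed for the small ribosomal subunit, which had 92.4, 74.4, 4.42 and 13.1 normalized reads. YNL114C stands next to RPC19, a subunit shared by RNA polymerases I and III, at 45.3, 32.5, 2.14 and 10.8. YNL174W stands next to NOP13, a nucleolar protein gene, with heat ratios of -2.76 without and -1.49 with rapamycin beside -2.78 and -2.14 for the locus. YLR198C (24.6, 34.1, 4.31 and 3.92) is next to NOP56, a core protein of box C/D small nucleolar particles (157, 168, 12.3 and 36.2), and YPR142C (26.6, 27.6, 5.17 and 4.58) is next to RRP15, a large subunit assembly factor (33.2, 45.4, 2.40 and 6.88). In the last of these pairs the heat ratios with rapamycin were -2.01 and -2.29, and in the NOP56 pair they were -2.42 and -2.13. Without rapamycin both pairs lay further apart, at -1.86 for YPR142C beside -2.74 for RRP15 and -1.91 for YLR198C beside -3.38 for NOP56. NOP56 regained signal in rapamycin at 39 °C and YLR198C did not.

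The neighbours of other loci have varied roles. YKL177W is next to STE3, the receptor of a mating pheromone, at 170, 161, 15.4 and 24.5 normalized reads, and YFR056C is next to IRC7, a cysteine desulfhydrase gene, at 255, 307, 59.0 and 50.4. YDR491C is next to IZH1, a membrane protein gene linked to zinc, and the heat ratios with rapamycin were -2.52 for the locus and -2.45 for IZH1. YJR071W is next to LIA1, the deoxyhypusine hydroxylase that modifies a translation factor, with -1.85 and -1.82. YDL228C, at 241, 263, 82.1 and 153, is next to SSB1, a ribosome-bound Hsp70 gene, at 864, 809, 180 and 435.

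Next to ribosomal protein genes stood 9 loci, and 6 of them regained signal in rapamycin at 39 °C, against 6 of the 28 loci next to other named heat-repressed genes. Their median log2 ratio of 39 °C to 30 °C with rapamycin was -0.84 beside -1.08 for the 28, while without rapamycin it was -1.60 beside -1.52. The medians at 30 °C were 301 normalized reads for the 9 loci and 36.8 for the 28, so the 9 rest on more reads. The difference between these sets was not tested.

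YGL123C-A had 297, 308, 59.5 and 141 normalized reads, and RPS2, a small subunit protein gene next to it, had 1178, 1198, 260 and 540. As a share of the 30 °C value the locus and RPS2 followed each other closely in every condition. YEL053W-A, at 371, 350, 87.8 and 194, followed RPL12A, a large subunit protein gene, at 403, 407, 83.4 and 203. YDR417C, at 484, 463, 161 and 369, followed RPL12B, at 525, 469, 175 and 355. RPL12A and RPL12B are paired copies, and the sources used here do not say how reads that map to several places were counted.

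YPL142C is next to RPL33A, at 348, 359, 115 and 303 normalized reads, and YGL102C, at 557, 557, 251 and 481, is next to RPL28, at 701, 673, 304 and 567. YLL044W, at 537, 499, 213 and 276, is next to RPL8B, at 594, 566, 240 and 356, and regained less, with a log2 ratio of 0.37 (counting standard error 0.10) between the columns at 39 °C. YPL250W-A, at 301, 267, 128 and 294, is next to RPL36B, at 282, 279, 111 and 228. YKL156C-A, at 45.2, 34.1, 6.19 and 15.7, is next to RPS27A, at 62.8, 54.5, 7.20 and 14.1. In rapamycin the log2 heat ratio was -0.99 (counting standard error 0.31) for YKL156C-A and -1.75 (0.31) for RPS27A, a difference that was not tested. RPS27A did not reach the 2-fold mark for regained signal. YMR193C-A differed from its neighbour in the other direction: it had 34.6, 30.0, 5.17 and 5.25, while RPL36A had 97.8, 99.2, 29.0 and 85.6, so that RPL36A came back in rapamycin and YMR193C-A did not.

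**Figure D4:**
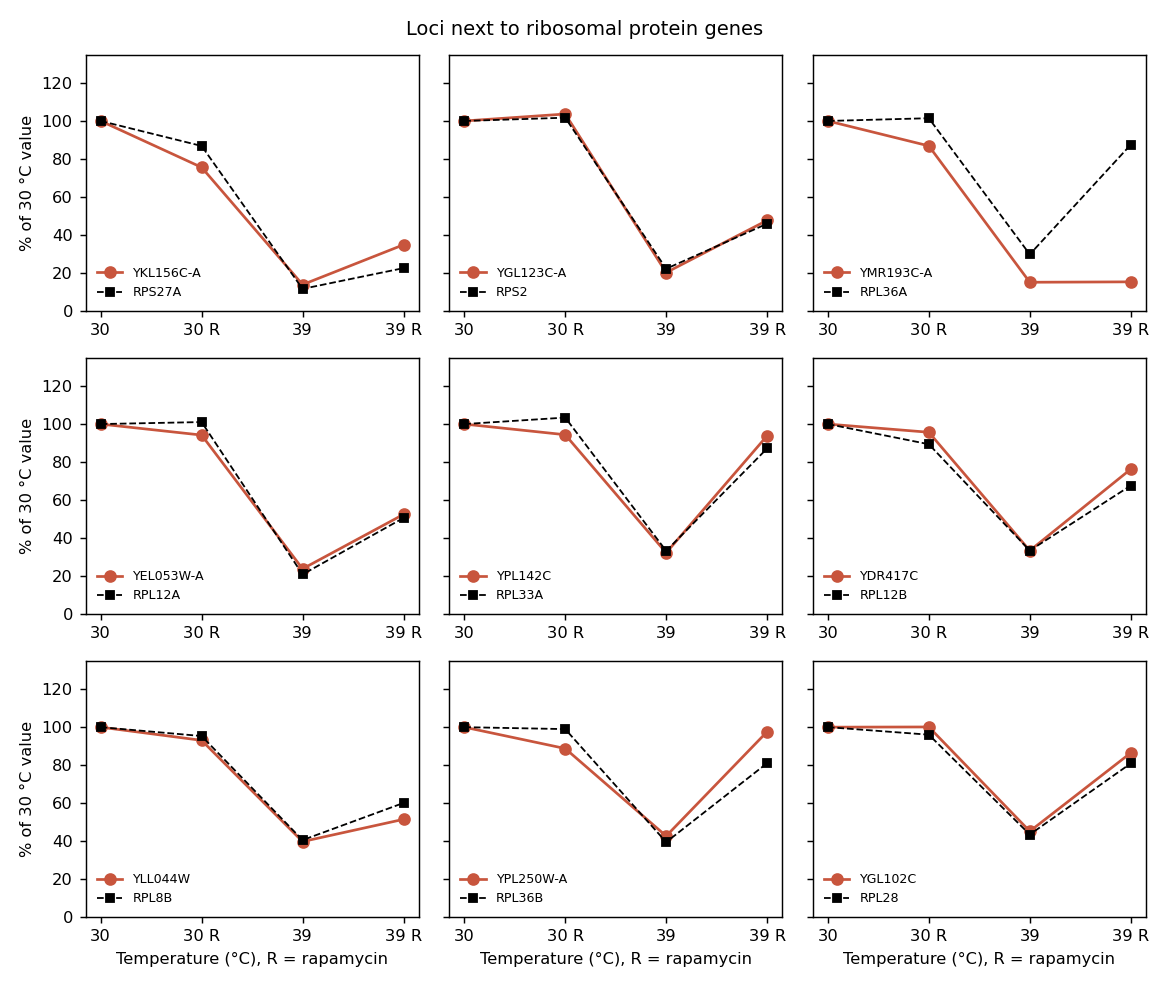
Value in each condition as a percent of the 30 °C value, for 9 loci without a RefSeq entry (red circles, solid) and the ribosomal protein gene next to each (black squares, dashed), where R marks rapamycin. In 7 of the 9 pairs the log2 heat ratios with rapamycin lie within 0.5 of each other. The exceptions are YKL156C-A and YMR193C-A. YKL156C-A is at -0.99 (counting standard error 0.31) beside -1.75 (0.31) for RPS27A. YMR193C-A stays at 5.25 normalized reads at 39 °C with rapamycin while RPL36A reaches 85.6.

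Departures from the neighbour were also seen at YPL182C, next to RTT10 on the same strand, and at YHR071C-A. The number of YHR071C-A lies beside NOP10, TRM5 and ERG7, and the locus departed from NOP10 but was within 0.5 of TRM5 and ERG7. YPL182C had a heat ratio with rapamycin of -0.16 (counting standard error 0.29) where RTT10 had -2.46. YHR071C-A had -0.92 (0.33) where NOP10, a small nucleolar particle protein gene, had -2.98, TRM5 -1.32 and ERG7 -0.73. YGL069C had -0.13 where RPB9, an RNA polymerase II subunit gene on the same strand, had -1.18.

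The 6 loci without a RefSeq entry and without a named heat-repressed neighbour were YCR087W, YEL020C-B, YDR509W, YGR259C, YJL120W and YPR050C. YCR087W, at 39.9, 27.3, 6.80 and 13.8 normalized reads, is next to YCR087C-A, itself one of the 83, at 28.6, 26.1, 3.41 and 11.1. The other neighbours of YCR087W by number, CSM1 and ABP1, had heat ratios of -0.54 (counting standard error 0.34) and 0.82 (0.14). YJL120W is next to RPE1, a pentose phosphate pathway gene, whose heat ratio of -0.996 (counting standard error 0.18) was just short of the 2-fold rule. YEL020C-B is next to TIM9, a mitochondrial import gene on the opposite strand, at 26.1, 22.9, 12.5 and 29.1, and TIM9 had a heat ratio of -0.91 (0.28). The other neighbours of YEL020C-B by number did not share its drop: YEL020C was at 1.72 (0.25), URA3 at 0.40 (0.15) and MMS21 at -0.11 (0.38). YPR050C is next to MAK3, an acetyltransferase gene, at -0.71 (0.26), and to ATG11, on its own strand, at 0.47 (0.27). YGR259C, at 68.9, 54.8, 29.6 and 61.7, and YDR509W, at 36.4, 31.4, 14.6 and 24.4, had opposite-strand neighbours TNA1 at -0.03 (0.12) and GNP1 at -0.46 (0.11), so neither shares its ratio with a neighbour measured here.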

How the data were processed

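Nascent RNA was measured in 4 conditions; 3 Hsf1 immunoprecipitation samples were not analysed here. The values are a signal, an average normalized read count per gene deposited by the authors as 1 column per condition, per the file headers. Counting with HTSeq and build sacCer3 are named per the submitters' processing notes. For the nascent RNA samples, the sources used here give no aligner, versions, annotation, strand setting or scaling method. Columns were matched to conditions by their header abbreviations.

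Ratios were computed after adding 3 to each value, with calls at 2-fold and a minimum mean of 15. Under 6, 99.4% to 100% of a column's values matched, within 0.0055, a sum of multiples of 2 step sizes, against 5.15% to 27.1% of evenly spaced values. Each column was therefore read as the mean of 2 libraries with depths from 205000 to 794000 reads, and counting errors follow from these steps. They cover counting error only, with at least 1 read per library assumed behind each value. The step fit was tested on simulated data. With 1 averaged column per condition there is no test. Neighbours were taken from systematic numbers and overlaps (at least 1 base) from the RefSeq table of assembly R64. Named loci follow a written rule: the extremes of each ratio, the loci at the edges of the thresholds, the overlaps and those that RefSeq names; the 6 loci without a heat-repressed neighbour, YDR524C-B and the neighbour pairs described were chosen after their values were seen. The members and lists were chosen with earlier results of these data known. Of the gene lists, 74 of 78 ribosome biogenesis and 37 of 48 methyltransferase names matched a row. A planned promoter motif search was not run, since no promoter sequence was used here. Python 3.11.15, pandas 2.3.3, NumPy 2.4.6 and Matplotlib 3.10.9 were used.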

Additional observations from a re-analysis of the deposited data

Results flagged for a closer look

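The loci YPL250W-A and YGR259C were lower at 39 °C than at 30 °C without rapamycin, at ratios of 0.432 and 0.454, and above their 30 °C value with rapamycin, at ratios of 1.1 and 1.12. The opposite direction in the 2 settings is what singled them out, and the difference was not tested, since each setting has 1 averaged column. The counting standard errors of the log2 ratios with rapamycin were 0.09 for YPL250W-A and 0.20 for YGR259C, against values of 0.14 and 0.16.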

How the results depend on the processing

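The direction of no log2 ratio of at least 1 in size turned among 996 recomputed values of single loci (3 ratios of each of the 83 loci, under the pseudocount and scaling alternatives), and 26 moved past their counting interval. The 83 members became 33 with a minimum mean of 30 and 44 at 3-fold. The 18 loci that regained signal became 6 of 64 with a pseudocount of 10, 8 of 33 with a minimum mean of 30, 0 of 44 at 3-fold and 48 of 123 at 1.5-fold. They were 4 of 32 without members next to or overlapping a named heat-repressed gene. The 45 loci lower with rapamycin became 15 with a minimum mean of 30, 22 at 3-fold, 88 at 1.5-fold and 16 without those members. Loci lower with rapamycin at 30 °C went from 0 to 1 of 121 with no minimum mean and to 3 at 1.5-fold. The 1 overlap became 3 with no minimum mean and 0 with a minimum mean of 30, at 3-fold and with 50% of the locus required. The 26 methyltransferase genes became 10 with a minimum mean of 30. In each of these cases fewer or more rows pass the rule by its construction. Rescaling the columns to equal totals shifted the median log2 heat ratio of all rows from 0.02 to -0.17 and raised the rows that met the rule from 804 to 1007. No paired analysis was possible because each condition has 1 averaged column. At 39 °C without rapamycin 23 of the 83 loci had under 6 normalized reads, where depth limits every ratio.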
